A study of Mus musculus with 9 samples.

Results

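The mature mitochondrial tRNAs for phenylalanine, valine, leucine (anticodon TAA), isoleucine, methionine and tryptophan are encoded on the heavy-strand transcript within the first stretch after its promoter. Their fragments were followed here in mouse blood serum, as reads for which every alignment was to the mature reference of 1 of these 6 tRNAs. Such reads made up 991 of 555585 tRNA reads and 523 of 41240 distinct sequences (fragments), and none of the 523 aligned to any other reference. The members were therefore rare, and 389 of the 523 fragments were single reads.

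All serum was from week 20 of an atherosclerosis study in mice. One group was fed a high fat diet with SalB (salvianolic acid B, a phenolic compound of Salvia miltiorrhiza root), 1 a high fat diet alone and 1 a normal diet, with 3 libraries each. Titles of the normal diet libraries carry the name C57, and no strain is named for the other groups, so diet and strain cannot be told apart in a comparison with normal diet. The libraries are not said to come from separate animals, so the p-values measure only how far these samples spread, and that spread may be technical. No dose of SalB is given in the labels.

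Mitochondrial DNA is transcribed from each strand as long polycistronic RNAs, in which tRNAs stand between rRNAs and messages as punctuation. RNase P cuts at the 5′ end of each tRNA and the ELAC2 nuclease at its 3′ end, after which CCA is added and aminoacylation can follow. Mature tRNAs can be cut further, in or beside the anticodon loop into long 5′ and 3′ pieces or in the T arm into short 3′ fragments, and such pieces are found in blood.

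The mature sequences are shown because every result below is a position on them. Each was assembled from matching reads, 5′ to 3′, with the anticodon in capitals and the added CCA at the 3′ end.
mt-Phe: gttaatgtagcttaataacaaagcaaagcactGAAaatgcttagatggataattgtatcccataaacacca
mt-Val: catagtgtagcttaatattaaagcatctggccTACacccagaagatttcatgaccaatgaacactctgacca
mt-Leu-TAA: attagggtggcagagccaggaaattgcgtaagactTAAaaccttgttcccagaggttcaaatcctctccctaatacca
mt-Ile: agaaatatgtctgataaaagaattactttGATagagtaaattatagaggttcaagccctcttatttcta
mt-Met: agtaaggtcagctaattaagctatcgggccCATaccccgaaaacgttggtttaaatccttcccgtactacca
mt-Trp, bases 1 to 33: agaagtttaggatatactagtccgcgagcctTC
mt-Trp, bases 36 to 70: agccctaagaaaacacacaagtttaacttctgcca
No read of mt-Ile reached its CCA, so its sequence stops before it. No read covered bases 34 and 35 of mt-Trp, which include the last base of its anticodon.

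The genes lie in RefSeq order on the mouse mitochondrial genome (GRCm38.p6). The gene mt-Tf (mt-Phe) is at chrM:1-68 and mt-Tv (mt-Val) at chrM:1025-1093, on either side of the 12S rRNA gene mt-Rnr1. The gene mt-Tl1 (mt-Leu-TAA) at chrM:2676-2750 follows the 16S rRNA gene mt-Rnr2 and precedes ND1, which encodes a subunit of complex I. The genes mt-Ti (mt-Ile) at chrM:3706-3774 and mt-Tm (mt-Met) at chrM:3845-3913 come after ND1 and before ND2, another complex I subunit gene. ND1 is annotated to position 3707, so mt-Ti overlaps its end. The gene mt-Tw (mt-Trp) is at chrM:4950-5016 and overlaps the end of ND2, which is annotated to position 4951.

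The depth, counted as all tRNA reads of a library, ran from 40134 to 156333 in SalB libraries, from 28191 to 55465 in high fat diet libraries and from 31058 to 94724 in normal diet libraries. The libraries differed in what else they held. Reads of the Leu-CAG-3-1 precursor took 42.0% of SalB replicate 2, 2.55% of SalB replicate 1 and at most 0.107% of the others. Mature mitochondrial tRNAs took 15.4%, 8.04% and 16.7% in SalB replicates 1, 2 and 3 and at most 3.20% in the other libraries. Levels are therefore given as normalised CPM, reads per total tRNA reads, in ppm, corrected with trimmed means of M values. Values scaled by total counts are set beside the comparisons with SalB. In serum, a larger number of cells releasing RNA and more RNA from each cell cannot be told apart.

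Together the 6 tRNAs were at 3232, 3642 and 3226 normalised CPM in the SalB libraries, against 1226, 1564 and 1455 in the high fat diet libraries and 1616, 1492 and 1046 in the normal diet libraries. Every SalB library was above every library of the other groups, which overlapped each other. As a plain share of tRNA reads they held 0.286%, 0.138% and 0.314% with SalB, 0.151%, 0.192% and 0.180% on high fat diet and 0.200%, 0.171% and 0.121% on normal diet. On that scale SalB replicate 2 fell among the other groups, and its Wilson 95% interval of 0.120% to 0.157% covers counting error only. With the Leu-CAG-3-1 precursor reads taken out of the total, the shares were 0.293%, 0.237% and 0.314% with SalB, against 0.151% to 0.192% on high fat diet and 0.122% to 0.200% on normal diet, again without overlap. Among mature mitochondrial tRNA reads the order was turned round. There the 6 tRNAs took 1.81 ± 0.0921% with SalB, against 6.04 ± 0.496% on high fat diet and 6.69 ± 1.06% on normal diet (SD, n = 3 each). The other mature mitochondrial tRNAs supplied 28359 reads with SalB, 3412 on high fat diet and 3502 on normal diet.

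**Figure D1:**
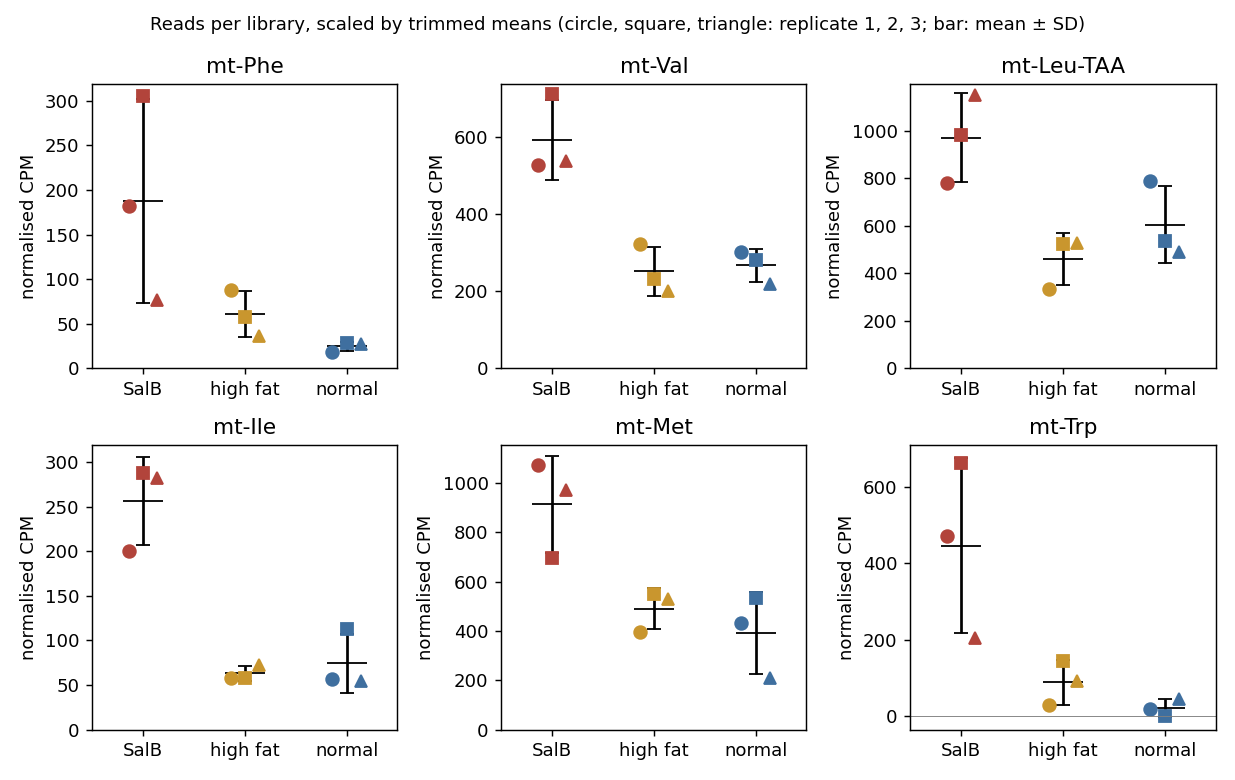
Normalised CPM (y axis, linear) of each of the 6 tRNAs in each library, by group, with the mean ± SD in black (n = 3). For mt-Val, mt-Leu-TAA, mt-Ile, mt-Met and mt-Trp the 3 SalB libraries are above the 3 high fat diet libraries, and for mt-Phe SalB replicate 3, at 76.8, is below high fat diet replicate 1, at 87.5.

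Per base of the mature sequence, mt-Met and mt-Leu-TAA were the highest in every group. With SalB the levels were 12.7 ± 2.71 normalised CPM per base for mt-Met, 12.5 ± 2.39 for mt-Leu-TAA, 8.22 ± 1.44 for mt-Val, 6.37 ± 3.27 for mt-Trp, 3.56 ± 0.684 for mt-Ile and 2.64 ± 1.61 for mt-Phe (SD, n = 3). On high fat diet the order was the same, with 6.81 ± 1.17 normalised CPM per base for mt-Met, 5.92 ± 1.40 for mt-Leu-TAA, 3.49 ± 0.871 for mt-Val, 1.26 ± 0.827 for mt-Trp, 0.875 ± 0.117 for mt-Ile and 0.854 ± 0.362 for mt-Phe. On normal diet mt-Leu-TAA led, at 7.76 ± 2.06, before mt-Met at 5.45 ± 2.31, mt-Val at 3.71 ± 0.599, mt-Ile at 1.04 ± 0.459, mt-Phe at 0.349 ± 0.0729 and mt-Trp at 0.306 ± 0.326 normalised CPM per base. mt-Met and mt-Leu-TAA differed by less than the SD of either in each group except normal diet, where the gap of the means was near the SDs. mt-Trp took the fourth place with SalB and on high fat diet and the last on normal diet. On high fat diet mt-Trp, mt-Ile and mt-Phe had 12, 10 and 10 reads, and on normal diet mt-Trp had 6 and mt-Phe 5. Their order among each other in these cases is therefore not resolved. The levels did not follow the order of the genes from the promoter. mt-Leu-TAA and mt-Met, at 331 and 278 reads, held most of the reads, and mt-Phe, the gene nearest the promoter, had 46.

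The fit across all families (amino acid and anticodon) asks whether serum levels of these tRNAs differed with SalB or with diet. The families mt-Val, mt-Leu-TAA and mt-Met passed the filter on low values, which asks for 10 reads at the median depth of 44415 in at least 3 libraries. The families mt-Phe, mt-Ile and mt-Trp did not, and are described by their reads. Comparisons of SalB with both diets share the SalB libraries, and those with high fat diet share the high fat diet libraries, so they are not independent of each other.

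mt-Val, which in the human mitochondrial ribosome is also a structural RNA of the large subunit, had 526, 712 and 538 normalised CPM with SalB, against 321, 232 and 200 on high fat diet and 301, 282 and 218 on normal diet. All SalB libraries were above all others, and both diets overlapped. As a plain share of reads, mt-Val with SalB overlapped both diets. Its level rose with SalB against high fat diet by 1.21 on the log2 scale (SE 0.30, limma-voom adjusted p = 0.0180) and against normal diet by 1.18 (SE 0.29, adjusted p = 0.0147). By total counts the same log2 fold changes were 0.28 (adjusted p = 0.680) and 0.34 (adjusted p = 0.557).

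mt-Leu-TAA reads the UUR codons of leucine. It had 781, 983 and 1152 normalised CPM with SalB, against 336, 521 and 528 on high fat diet and 789, 535 and 491 on normal diet. The SalB libraries were above the high fat diet libraries and overlapped the normal diet libraries, of which replicate 1 was high. As a plain share of reads, mt-Leu-TAA with SalB overlapped both diets. Its level rose with SalB against high fat diet by 1.08 on the log2 scale (SE 0.31, limma-voom adjusted p = 0.0252). Against normal diet the log2 fold change was 0.70 (SE 0.29, adjusted p = 0.0861), and by total counts it was 0.25 (adjusted p = 0.702) against high fat diet and -0.10 (adjusted p = 0.901) against normal diet.

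mt-Met, the single methionine tRNA of the organelle, serves both initiation and elongation. It had 1071, 695 and 973 normalised CPM with SalB, against 394, 550 and 528 on high fat diet and 432, 535 and 209 on normal diet. All SalB libraries were above all others, with normal diet replicate 3 the lowest. As a plain share of reads, mt-Met with SalB overlapped both diets. Its level rose with SalB against normal diet by 1.39 on the log2 scale (SE 0.38, limma-voom adjusted p = 0.0205). Against high fat diet the log2 fold change of 0.88 (SE 0.37, adjusted p = 0.0848) did not pass, and by total counts the values were 0.62 (adjusted p = 0.423) and 0.04 (adjusted p = 0.956).

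Thus 2 of the 3 tested families rose with SalB in each comparison and 0 fell. Over all 103 tested families, 30.1% rose and 3.88% fell with SalB against high fat diet, 31.1% rose and 5.83% fell against normal diet, and the median log2 fold changes were 0.62 and 0.70. With total counts 7.77% of families rose in either comparison and no member did. That scaling moved the medians by -0.88 and -0.86. Against high fat diet, both calls were lost without high fat diet replicate 2 or 3 (limma-voom adjusted p from 0.0807 to 0.0977) and in a fit of only those groups, and that of mt-Leu-TAA also without high fat diet replicate 1 (0.157) or normal diet replicate 2 (0.0596), with no filter (0.0576) and with the replicate block (0.0505). Over 19 alternatives the mt-Val call held in 15 and the mt-Leu-TAA call in 11. Against normal diet, both were lost without normal diet replicate 1 or 3 (limma-voom adjusted p from 0.0542 to 0.127), and that of mt-Met also without high fat diet replicate 2 (0.0531) or 3 (0.0506) and in a fit of only those groups (0.0685). Here the mt-Val call held in 16 and the mt-Met call in 13 of 19.

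High fat diet against normal diet gave no call. The log2 fold changes were -0.03 for mt-Val, -0.38 for mt-Leu-TAA and 0.51 for mt-Met, each with an SE of 0.31 to 0.40 and a limma-voom adjusted p of at least 0.925. Of the 103 families 0% were called, 6 (5.83%) had an unadjusted p under 0.05, and limma on log2 values also called 0.

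**Figure D2:**
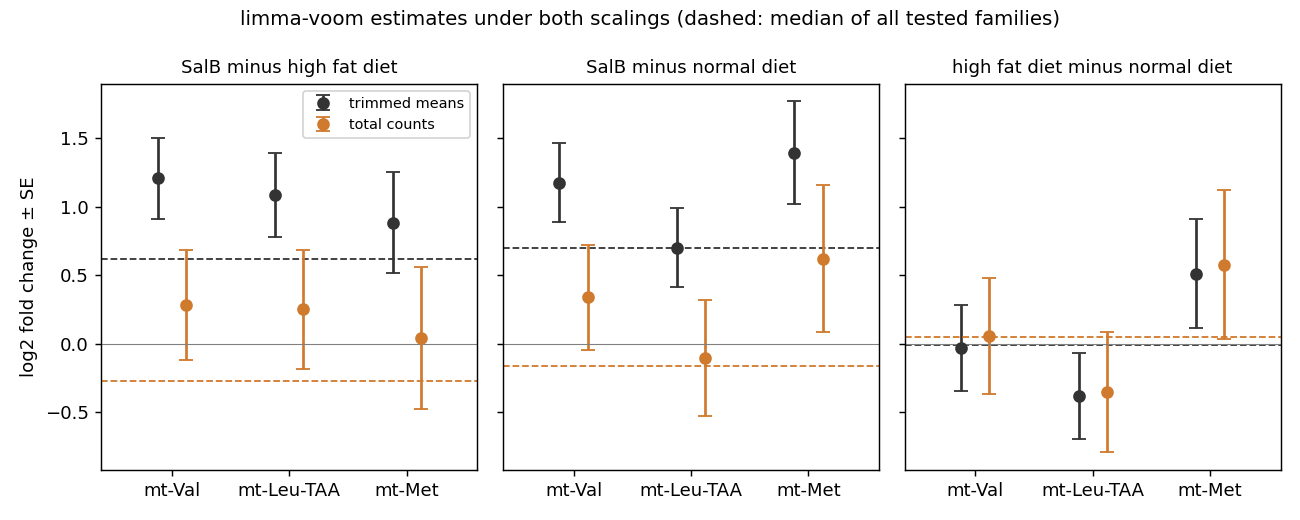
log2 fold change ± SE (limma-voom, n = 3 per group) of the 3 tested families in each comparison, scaled by trimmed means (black) and by total counts (orange), with dashed lines at the median of all 103 families. In both comparisons with SalB the estimates of both scalings differ by about as much as the dashed lines do.

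The remaining families of the mitochondrial genome gave a scale for this. Of 8 heavy-strand tRNAs farther from the promoter, 4 were tested, and all 4 (mt-Gly-TCC, mt-His-GTG, mt-Ser-GCT and mt-Thr-TGT) rose with SalB against high fat diet, with log2 fold changes from 1.80 to 4.40. Of 8 light-strand tRNAs, 4 were tested (mt-Asn-GTT, mt-Gln-TTG, mt-Glu-TTC and mt-Ser-TGA) and 0 were called, with log2 fold changes from 0.12 to 0.75. The 3 tested members, at 0.88 to 1.21, lay between these ranges in that comparison. Against normal diet their range of 0.70 to 1.39 overlapped that of the light-strand list, -0.30 to 1.27, and with no filter the range of all 6 members overlapped those of both lists in either comparison. The median log2 fold change was 1.08 for the tested members, 2.28 for the distal heavy-strand list and 0.42 for the light-strand list, and relative to normal diet it was 1.18, 2.56 and 0.83 in the same order. The difference between the lists was not tested.

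mt-Trp reads UGG and also UGA, a stop codon in the cytosol, by a modified wobble uridine. It had 26, 39 and 8 reads with SalB, against 2, 5 and 5 on high fat diet and 1, 0 and 5 on normal diet. In normalised CPM these were 472, 661 and 205 with SalB, against 29.2, 145 and 90.9 on high fat diet and 18.8, 0 and 45.5 on normal diet. All SalB libraries were above all others, also as a plain share of tRNA reads, where they held 418, 249 and 199 ppm against at most 177 ppm on high fat diet and 52.8 ppm on normal diet. Such a lack of overlap by share was seen in 9.71% of the 103 tested families against high fat diet and in 12.6% against normal diet.

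The summed mt-Trp reads gave a SalB to high fat diet ratio of 6.28 (95% counting interval 3.38 to 12.7) and a SalB to normal diet ratio of 15.8 (6.91 to 44.4). By total counts the ratios were 3.01 (1.62 to 6.09) and 7.94 (3.48 to 22.3). These intervals cover counting error only. The fit without a filter on low values gave log2 fold changes of 2.50 (SE 0.65, limma-voom adjusted p = 0.0318) and 3.91 (SE 0.75, adjusted p = 0.00697), with 11.7% and 12.3% of its 326 families rising. A filter at 5 reads, chosen after the values were seen, gave 2.50 (adjusted p = 0.0215) and 3.98 (adjusted p = 0.00430), with 32.6% and 34.1% of 129 families rising. mt-Trp passed that filter mainly through its SalB libraries, so the p-values of both fits describe it and add no support.

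mt-Ile, which reads the AUY codons of isoleucine, had 11, 17 and 11 reads with SalB, against 4, 2 and 4 on high fat diet and 3, 4 and 6 on normal diet. In normalised CPM it had 199.7, 288 and 282 with SalB, against 58.4, 57.9 and 72.8 on high fat diet and 56.4, 113 and 54.6 on normal diet. All SalB libraries were above all others, and as a plain share of reads they remained above high fat diet but overlapped normal diet. The ratios of summed reads were 4.02 (95% counting interval 1.97 to 9.04) against high fat diet and 3.89 (2.03 to 7.95) against normal diet, and 1.93 (0.946 to 4.34) and 1.96 (1.02 to 3.996) by total counts. Without a filter its log2 fold changes were 1.85 (SE 0.47, limma-voom adjusted p = 0.0294) and 1.84 (SE 0.44, adjusted p = 0.0206), where 11.7% and 12.3% of 326 families rose. mt-Ile did not pass the main filter and was read mainly with SalB, so these p-values describe it and add no support.

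mt-Phe, which reads the UUY codons of phenylalanine, had 10, 18 and 3 reads with SalB, against 6, 2 and 2 on high fat diet and 1, 1 and 3 on normal diet. SalB overlapped high fat diet, while both were above every normal diet library on the normalised scale and as a plain share of reads. Of the 103 tested families, 9.71% stood higher on high fat diet than on normal diet without overlap in normalised CPM and 11.7% by share. Without a filter, the log2 fold change of mt-Phe was 2.47 for SalB against normal diet (SE 0.64, limma-voom adjusted p = 0.0262), where 12.3% of 326 families rose. It was 1.42 against high fat diet (SE 0.59, adjusted p = 0.141) and 1.05 for high fat diet against normal diet (SE 0.70, adjusted p = 0.980). mt-Phe did not pass the main filter and was read mainly with SalB, so these p-values describe it and add no support. Over the 6 tRNAs, 5 stood higher with SalB than on high fat diet without overlap in normalised CPM, as did 39.8% of the 103 tested families. Against normal diet 5 did, all but mt-Leu-TAA, beside 40.8% of tested families. As a plain share of reads only mt-Ile and mt-Trp did so against high fat diet, beside 9.71% of tested families. Against normal diet only mt-Phe and mt-Trp did so by share, beside 12.6%.

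The part of the tRNA that was read differed from member to member. Reads were called 5′ when they started at base 1, 3′ when they ended within the CCA, and internal otherwise. mt-Met was mostly 5′ (180 of 278 reads, 64.7%), mt-Trp mostly 3′ (84 of 91, 92.3%) and mt-Leu-TAA mostly internal (261 of 331, 78.9%). Reads were at most 40 bases long, and mature mt-Leu-TAA has 78 bases. Its reads that began at base 30 or 32 could not reach the CCA and could only be called internal. mt-Phe was 58.7% and mt-Val 43.2% 3′, while mt-Ile had 66.1% internal and 33.9% 5′ reads and no 3′ read among 62. Read lengths went with this, with medians of 17 bases for mt-Trp, 21 for mt-Phe, 23 for mt-Val, 30 for mt-Ile, 34 for mt-Met and 35 for mt-Leu-TAA.

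**Figure D3:**
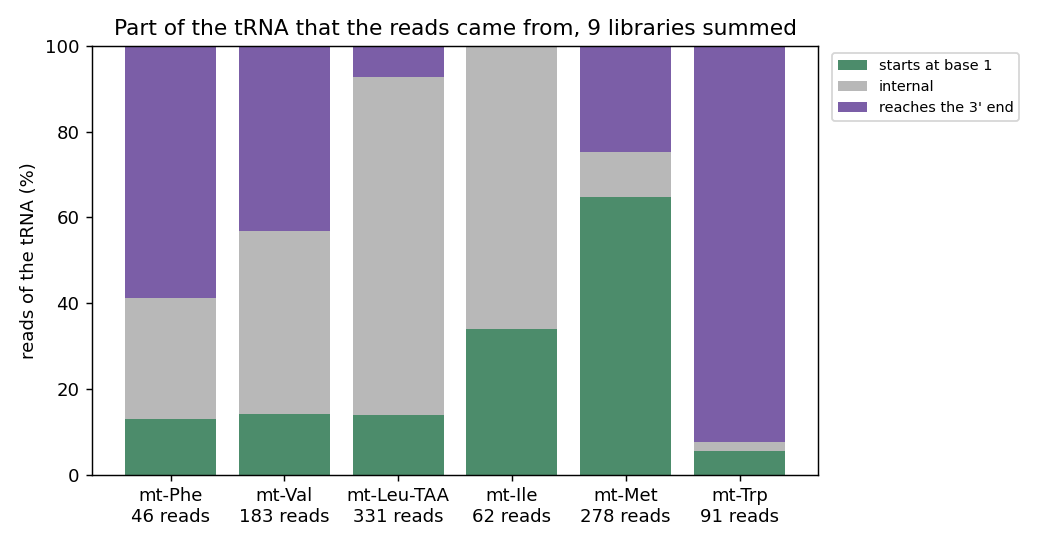
Share of the reads of each tRNA (y axis, %) that started at base 1, were internal, or reached the 3′ end, with all 9 libraries summed and the number of reads under each bar. mt-Met is mostly 5′ (64.7%), mt-Leu-TAA mostly internal (78.9%) and mt-Trp mostly 3′ (92.3%). No read is longer than 40 bases.

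**Figure D4:**
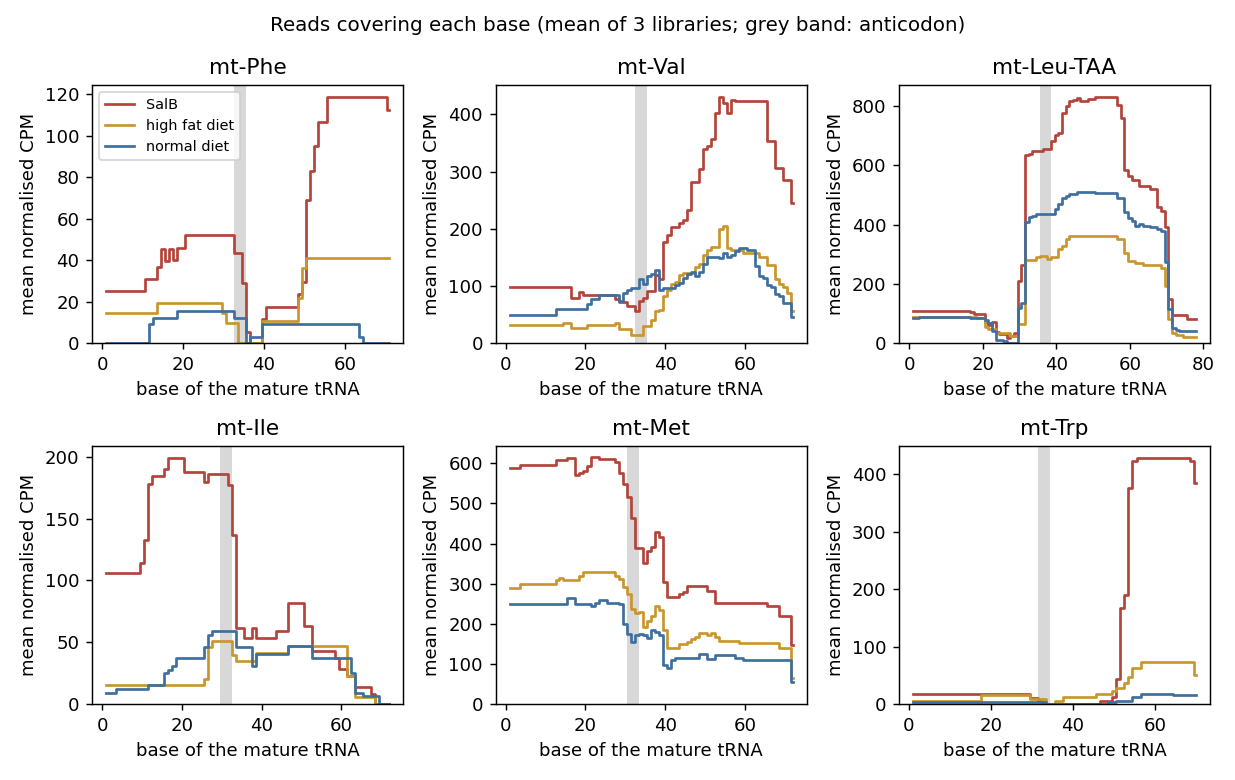
Mean normalised CPM of reads over each base of the mature tRNA (x axis, base 1 at the 5′ end), one line per group (n = 3), with the anticodon as a grey band. Reads of mt-Trp pile up after base 50, those of mt-Leu-TAA run from base 30 or 32 to about base 70, and those of mt-Met drop in and after the anticodon.

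The fragments that carried the mt-Trp difference were short 3′ pieces that begin in the T arm, shown with CCA in capitals.
mt-Trp 54-70: aagtttaacttctgCCA
mt-Trp 52-70: acaagtttaacttctgCCA
mt-Trp 55-70: agtttaacttctgCCA
The 17-base fragment had 8, 12 and 2 reads with SalB, against 0, 1 and 0 on high fat diet and none on normal diet. The 19-base fragment had 5, 8 and 3 reads with SalB and none in the other 6 libraries, so that it was at least 5.50-fold higher than on high fat diet and at least 6.92-fold higher than on normal diet (0 set to 3 reads over the group). Set in the same way, the SalB to normal diet ratio of the 17-base fragment was 9.51 (lower counting limit 7.11). Its ratio to high fat diet was 22.7 (95% counting interval 3.67 to 937). By total counts these were 4.78 (lower limit 3.57) and 10.9 (1.76 to 449). For the 19-base fragment the ratios by total counts were 2.64 (lower limit 1.91) and 3.48 (lower limit 2.52). Base 54 was the start of 30 and base 52 of 20 of the 73 mt-Trp reads with SalB, against 1 and 0 of 12 on high fat diet and none of 6 on normal diet. The 16-base fragment had 6 reads in SalB replicate 2 and 1 in normal diet replicate 3.

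All mt-Trp 3′ reads together numbered 24, 38 and 8 with SalB, against 2, 4 and 4 on high fat diet and 1, 0 and 3 on normal diet. No library overlapped another group on the normalised scale, where SalB stood highest and normal diet lowest. Between the diets this rests on high fat diet replicate 1 (2 reads, 29.2 normalised CPM) and normal diet replicate 3 (3 reads, 27.3). The mt-Trp 3′ sum did not pass the main filter, so it is not among the 169 tested sums. Among 169 tested origin sums, 37.3% stood higher with SalB than on high fat diet without overlap, and 35.5% did so for SalB over normal diet. For high fat diet over normal diet it was 11.2%. The ratio of summed reads was 7.22 (95% counting interval 3.70 to 15.7) for SalB over high fat diet and 22.7 (8.48 to 85.6) for SalB over normal diet. By total counts these were 3.47 (1.78 to 7.54) and 11.4 (4.27 to 43.1). The ratio was 3.14 (0.907 to 13.7) for high fat diet over normal diet. With the 5-read filter the sum of 3′ reads had a log2 fold change of 2.64 against high fat diet (SE 0.64, limma-voom adjusted p = 0.0155) and 4.15 against normal diet (SE 0.72, adjusted p = 0.00236), where 23.9% and 30.6% of 209 origin sums rose. That filter was chosen after the values were seen, and the sum passed it mainly through its SalB libraries, so these values describe it and add no support. High fat diet against normal diet had a log2 fold change of 1.51 (SE 0.85, adjusted p = 0.638).

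The 3′ reads of mt-Phe were 7, 12 and 1 with SalB, against 4, 1 and 2 on high fat diet and none on normal diet, where all 5 mt-Phe reads were internal. With 0 set to 3 reads over the group, the ratio to normal diet was 8.65 for SalB (lower counting limit 6.40). For high fat diet it was 2.93 (lower counting limit 1.81). By total counts the ratios were 4.35 (lower limit 3.22) and 3.08 (lower limit 1.90). Without a filter, the log2 fold change was 3.55 for SalB against normal diet (SE 0.68, limma-voom adjusted p = 0.00442), where 11.8% of 508 origin sums rose. It was 2.44 for high fat diet against normal diet (SE 0.75, adjusted p = 0.715) and 1.11 for SalB against high fat diet (adjusted p = 0.399). The sum did not pass the main filter and was read mainly with SalB, so these p-values describe it and add no support. Of 169 tested origin sums, 11.2% stood higher on high fat diet than on normal diet without overlap. The most abundant mt-Phe fragment, shown with CCA in capitals, was read 5 times in SalB replicate 2 and once in high fat diet replicate 1.
mt-Phe 51-71: aattgtatcccataaacaCCA

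The 3′ reads of mt-Val were 13, 29 and 5 with SalB, against 6, 4 and 5 on high fat diet and 6, 0 and 11 on normal diet. SalB stood above both diets on the normalised scale but overlapped them as a plain share of reads. In the fit with the 5-read filter the log2 fold changes were 1.38 (SE 0.70, limma-voom adjusted p = 0.153) against high fat diet and 2.03 (SE 0.76, adjusted p = 0.0582) against normal diet. Internal mt-Val reads, which were tested at the main filter, had 0.80 (SE 0.47, adjusted p = 0.208) and 0.56 (SE 0.45, adjusted p = 0.349). Its most abundant fragments all end in CCA, shown in capitals, and start 3′ of the anticodon.
mt-Val 47-72: ttcatgaccaatgaacactctgaCCA
mt-Val 54-72: ccaatgaacactctgaCCA
mt-Val 40-72: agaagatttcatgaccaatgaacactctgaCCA
The first had 5 reads in SalB replicate 2 and 1 in normal diet replicate 3. The second had 1 read in SalB replicate 1 and 4 in SalB replicate 2, and the third had 4 in SalB replicate 1 and 1 in normal diet replicate 3. Of the 141 mt-Val fragments, 126 were each seen in 1 library.

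mt-Leu-TAA had the most sharply placed starts among the internal reads. Of its 331 reads, 141 (42.6%) began at base 32 and 52 (15.7%) at base 30, which are 4 and 6 bases ahead of the anticodon and thus in the anticodon stem. In each group base 32 was the most used start, with 53 of 146 reads with SalB, 34 of 70 on high fat diet and 54 of 115 on normal diet. A read of 40 bases, the longest held, that starts at base 32 ends at base 71. Ends near base 70 therefore lie at the length limit. The leading fragments are shown with their last base, which differs from the tRNA, in capitals.
mt-Leu-TAA 32-70: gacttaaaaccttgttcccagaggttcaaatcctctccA
mt-Leu-TAA 32-71: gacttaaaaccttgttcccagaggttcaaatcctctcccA
mt-Leu-TAA 30-58: aagacttaaaaccttgttcccagaggttA

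The first of these, with the substitution C70A (tRNA base, position, base read), was the member fragment with the most reads and the only one found in all 9 libraries. It had 5, 4 and 5 reads with SalB, against 5, 3 and 5 on high fat diet and 9, 2 and 9 on normal diet. The groups overlapped, and the SalB to high fat diet ratio was 1.11 (95% counting interval 0.484 to 2.57), or 0.533 (0.232 to 1.23) by total counts. The SalB to normal diet ratio was 0.908 (0.424 to 1.89), or 0.457 (0.213 to 0.951) by total counts. The fragment ending at C58A had 5, 2 and 3 reads with SalB, none on high fat diet and 1, 2 and 1 on normal diet. With 0 set to 3 reads over the group, its SalB to high fat diet ratio was 3.44 (lower 95% counting limit 2.31). Relative to normal diet the ratio was 3.24 (0.935 to 14.2). By total counts these values were 1.65 (lower limit 1.11) and 1.63 (0.470 to 7.12). Internal mt-Leu-TAA reads as a whole rose with SalB against high fat diet by 1.09 on the log2 scale (SE 0.36, limma-voom adjusted p = 0.0470), where 23.7% of 169 origin sums rose. That call was lost on leaving out any library other than SalB replicate 2, with RLE size factors, without Leu-CAG-3-1 precursor reads, in a fit of only those groups, with no filter (adjusted p = 0.108) and with total counts (log2 fold change 0.22).

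mt-Met reads started at base 1 and ended around the anticodon or 6 bases past it. Of its 180 5′ reads, 89 (49.4%) ended within the anticodon loop, a share that was 66.7% (14 of 21) for mt-Ile and 0 of 46 for mt-Leu-TAA. Base 39 was the most used end of mt-Met, with 41 reads. Reads were at most 40 bases long, so a read from base 1 could end no later than base 40. Its leading fragments are shown with anticodon bases in capitals, or, in the third, with a last base that differs from the tRNA.
mt-Met 1-39: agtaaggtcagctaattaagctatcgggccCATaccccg
mt-Met 1-32: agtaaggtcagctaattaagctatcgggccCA
mt-Met 1-39, G39A: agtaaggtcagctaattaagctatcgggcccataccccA
The first had 5, 2 and 0 reads with SalB, against 4, 0 and 1 on high fat diet and 4, 2 and 1 on normal diet, and the groups overlapped. The second ends inside the anticodon and had 5, 2 and 5 reads with SalB, against 0, 1 and 1 on high fat diet and 0, 0 and 1 on normal diet. Its ratios were 6.19 (95% counting interval 1.38 to 57.0) against high fat diet and 15.6 (2.303 to 665) against normal diet. By total counts they were 2.97 (0.661 to 27.3), an interval that includes equal levels, and 7.83 (1.16 to 335). The third had 9, 2 and 2 reads with SalB, against 0, 1 and 0 on high fat diet and 1, 1 and 0 on normal diet, with ratios of 13.4 (2.01 to 570.02) and 8.43 (1.91 to 77.0). By total counts its ratios were 6.44 (0.967 to 273) and 4.24 (0.960 to 38.7), and both intervals include equal levels.

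The 5′ reads of mt-Met rose with SalB against normal diet by 1.28 on the log2 scale (SE 0.41, limma-voom adjusted p = 0.0340), where 32.5% of 169 origin sums rose, and had 0.89 (SE 0.41, adjusted p = 0.121) against high fat diet. By total counts the log2 fold change against normal diet was 0.47 (adjusted p = 0.582). That call was lost with no filter (adjusted p = 0.0780) and on leaving out any library other than SalB replicate 2 or 3. The share of mt-Met reads that were 5′ was 62.7 ± 12.7% with SalB, 60.7 ± 17.9% on high fat diet and 66.8 ± 13.0% on normal diet (SD, n = 3 each; exact permutation test over 280 partitions, p = 0.839, adjusted over 65 families p = 1.0). For mt-Leu-TAA it was 11.5 ± 13.996%, 18.9 ± 12.6% and 15.5 ± 9.83% (exact permutation p = 0.707, adjusted p = 0.958). In both tRNAs replicate 2 stood apart within every group, with the lowest 5′ share for mt-Met and the highest for mt-Leu-TAA. The permutation test took no account of replicate number. By number, the mt-Leu-TAA share was 4.65%, 27.6% and 2.22% with SalB, against 13.0%, 33.3% and 10.3% on high fat diet, lower with SalB in all 3 numbers. On normal diet it was 7.14%, 26.3% and 13.0%, where SalB was higher in number 2. The order by number was not tested.

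In mt-Ile the 5′ reads ended at the edge of the anticodon, as in its most abundant fragment, shown with the anticodon in capitals.
mt-Ile 1-33: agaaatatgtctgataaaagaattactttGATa
It had 1, 3 and 2 reads with SalB, against 1, 0 and 0 on high fat diet and 0, 1 and 0 on normal diet. All 5′ reads of mt-Ile numbered 3, 11 and 3 with SalB, against 2, 0 and 1 on high fat diet and 0, 1 and 0 on normal diet, and SalB did not overlap either diet on the normalised scale. The ratios were 5.85 (95% counting interval 1.69 to 31.1) against high fat diet and 22.1 (3.46 to 922) against normal diet. By total counts they were 2.81 (0.811 to 14.9), an interval that includes equal levels, and 11.1 (1.74 to 463). The fit without a filter gave log2 fold changes of 2.17 (SE 0.90, limma-voom adjusted p = 0.150) and 2.75 (SE 0.80, adjusted p = 0.0371), where 7.87% and 11.8% of 508 origin sums rose. The sum did not pass the main filter and was read mainly with SalB, so these values describe it and add no support.

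At the level of single fragments no member reached the 10-read filter, so none of the 733 tested fragments was a member. Without a filter, 41240 fragments were tested and 3 members rose in each comparison with SalB, where 1.54% and 1.87% of all rose. Against high fat diet these were both mt-Trp fragments that start at base 54 or 52 and mt-Leu-TAA 30-58. Against normal diet they were the same pair of mt-Trp fragments and mt-Met 1-32. Limma-voom adjusted p ran from 6.33e-06 to 0.00162 against high fat diet and from 1.36e-07 to 0.00321 against normal diet, from between 14 and 23 reads per fragment in all. Of 523 members, 3 is a smaller share than the 1.54% and 1.87% of all fragments. The called fragments were read mainly with SalB and the fit had no filter on low values, so these p-values describe them and add no support.

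Many reads of these tRNAs carried a mismatch at their last base. It was found in 339 of 991 member reads (34.2%), against 27.7% of reads of the other mature mitochondrial tRNAs and 18.6% of nuclear ones. Among the 6, only mt-Leu-TAA and mt-Met exceeded the other mitochondrial tRNAs, while mt-Val, mt-Trp, mt-Phe and mt-Ile were below them. mt-Phe and mt-Ile were also below the nuclear share. In each of the 9 libraries the share was higher for the 6 tRNAs together than for nuclear tRNAs. In 8 of 9, all but SalB replicate 2, it was higher than for the other mitochondrial tRNAs. The difference was not tested. At all other bases the mismatch share was 0.437% for the 6 tRNAs, 0.392% for the other mitochondrial tRNAs and 0.826% for nuclear tRNAs, so the mismatches sat at the end. The alignments allowed 1 mismatch per read.

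mt-Leu-TAA stood highest, at 168 of 331 reads (50.8%), followed by mt-Met (32.4%), mt-Val (26.8%), mt-Trp (18.7%), mt-Phe (15.2%) and mt-Ile (12.9%). The base read was A in 131 of the 168 mt-Leu-TAA cases (78.0%). Of mt-Leu-TAA reads, 59 of 84 that ended at base 70, 31 of 42 at base 58 and 19 of 29 at base 71 ended in a mismatched A. At base 39 of mt-Met it was 16 of 41 (39.0%). At the CCA end itself a mismatched A cannot occur, and the mismatch share was lower, as for mt-Trp, where 65 of 74 reads that ended at base 70 matched. By group, the mt-Leu-TAA share was 47.3% with SalB, 54.3% on high fat diet and 53.0% on normal diet.

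**Figure D5:**
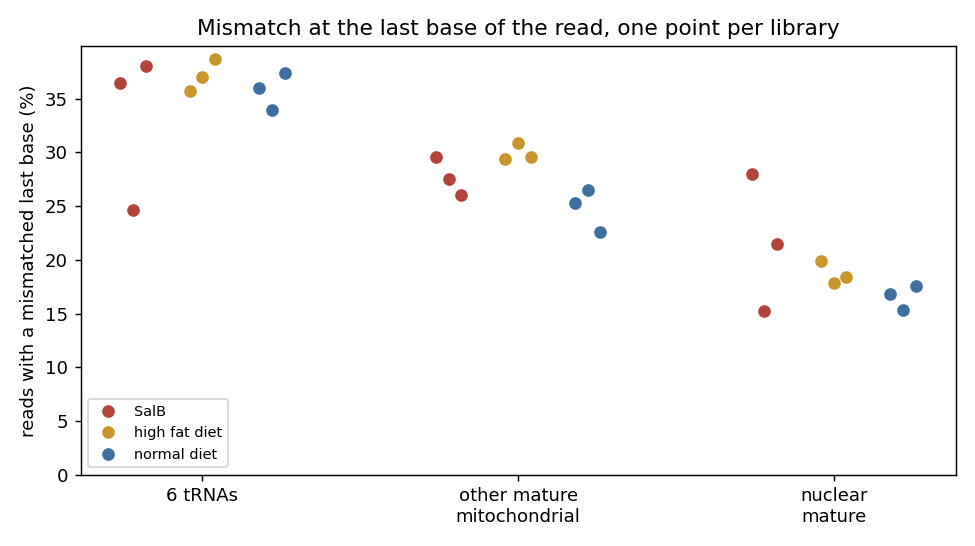
Share of reads with a mismatched last base (y axis, %), 1 point per library, for the 6 tRNAs, the other mature mitochondrial tRNAs and nuclear mature tRNAs. Libraries of the 6 tRNAs lie between 24.7% and 38.8%, with SalB replicate 2 the lowest, and the groups overlap.

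Position 9 of mitochondrial tRNAs, where a purine is methylated by a subcomplex of mitochondrial RNase P, can give mismatches in sequencing. Here it was covered by few reads. A mismatch was seen in 3 of 6 reads of mt-Phe (exact 95% interval 11.8% to 88.2%), 4 of 26 of mt-Val (4.36% to 34.9%), all A9T, and 4 of 47 of mt-Leu-TAA (2.37% to 20.4%), 3 of them G9C. There was none in 22 reads of mt-Ile, where 3 reads would be 13.6% and the exact upper limit is 15.4%, nor in 5 of mt-Trp, where the exact upper limit is 52.2%. In mt-Met, whose base 9 is a cytosine, it was 1 of 182 (0.0139% to 3.02%). The depth allows no comparison between groups.

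Among 100 other families, the level of mt-Val over the 9 libraries was most like that of nuclear Phe-GAA and Leu-CAA (Pearson r of log2 normalised CPM 0.98 and 0.96). For mt-Leu-TAA these were mt-Gly-TCC and Thr-CGT (0.86 each), and for mt-Met Arg-TCT and the precursor of Ser-GCT (0.84 and 0.83). Among the members themselves, r was 0.72 for mt-Val with mt-Leu-TAA, 0.69 for mt-Val with mt-Met and 0.66 for mt-Leu-TAA with mt-Met. These values describe 9 libraries of 3 groups that share a scaling, and they also carry the differences between the groups.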

How the data were processed

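Serum RNA was extracted with TRIzol, ligated to adapters, selected on a gel and sequenced with a tRNA fragment kit, per the labels' protocols. The submitters' processing notes name FastQC, cutadapt, Bowtie, edgeR and mm10 without giving their roles. The deposited files hold alignments, to tRNA references both mature and precursor, of reads between 14 and 40 bases long, none with over 1 mismatch. The authors' read counts stand in the read names, and the deposited files hold tRNA reads only.

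Each read was counted once. No column holds counts, so limma-voom (limma 3.58.1, R 4.3.3) replaced the planned count test. It used trimmed means of M values, 1 fit over 9 libraries and Benjamini-Hochberg adjustment at 0.05 over 103 families, 169 origin sums or 733 fragments. It was tested on simulated counts of fragments that passed the filter, which did not cover the fits without a filter. Features needed 10 reads at the median depth in 3 libraries and 15 in all. Named fragments were the 3 most abundant per tRNA and called ones, and others were chosen after their values were seen. Genes were matched to RefSeq (6 of 6). The members, lists and tests were chosen with earlier results of these data known. Libraries of 1 group differed beyond sampling noise (chi-square per degree of freedom 2.30 to 31.0). Alternatives were RLE size factors, total counts, other filters, read length, 2-group fits, a replicate block, limma on log2 values and leaving out each library.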

Additional observations from a re-analysis of the deposited data

How the results depend on the processing

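The number of called families among the 6 tRNAs (2 in each comparison with SalB) fell to 0 in both with total counts. For SalB against high fat diet it was 0 in a fit of only those groups. At the 5-read filter, which was chosen after seeing the data, it was 4, where 32.6% of 129 families rose. For SalB against normal diet it was 5 with no filter, where 12.3% of 326 families rose. At the 5-read filter it was 4, where 34.1% of 129 rose. The members that these settings added, mt-Phe, mt-Ile and mt-Trp, were read mainly with SalB, so their calls add no support. Leaving out 1 library at a time gave 0 to 3 families in either. Called origin sums (1 each) were 0 with total counts and 2 at the 5-read filter in both, where 23.9% and 30.6% of 209 rose. Against high fat diet the called sums were 0 with RLE size factors, without Leu-CAG-3-1 precursor reads and in the 2-group fit. Against normal diet they were 3 with no filter, where 11.8% of 508 rose. Leaving out 1 library gave 0 to 2. Called member fragments were 3 in both with no filter, where 1.54% and 1.87% of 41240 fragments rose, and otherwise 0. For high fat diet against normal diet every count stayed at 0.

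Changes of sign met 2 uncalled values. The mt-Val log2 fold change of high fat diet against normal diet, -0.03, was 0.0064 with RLE size factors, 0.056 with total counts, 0.026 without Leu-CAG-3-1 precursor reads, 0.074 in the 2-group fit and 0.18 at 16 to 40 bases, and ran from -0.23 to 0.16 with 1 library left out. The mt-Leu-TAA value of SalB against normal diet was -0.10 with total counts. With the replicate block, 1 family was called against high fat diet (mt-Leu-TAA had an adjusted p of 0.0505 by limma-voom). The replicate numbers were not taken as pairs, since deviations of same-numbered libraries had correlations from -0.30 to 0.16, although replicate 2 stood apart in the 5′ shares of every group. The share of the 6 tRNAs moved to 1.81%, 6.04% and 6.69% in SalB, high fat diet and normal diet when taken of mature mitochondrial reads, and with 1 library left out ran from 0.212% to 0.2999%, 0.166% to 0.186% and 0.146% to 0.185% of all tRNA reads. The exact permutation p of the 5′ share ran from 0.261 to 0.911 for mt-Leu-TAA and from 0.5 to 1.0 for mt-Met. Depth limits mt-Phe, mt-Ile and mt-Trp most, where 3 reads in a library equal 27.3 to 86.9 normalised CPM.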

Other observations

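Reads that the references assign to precursors of these tRNAs were far more numerous than the mature ones, and nearly all of them began at the first base of the neighbouring ribosomal RNA gene. Of 6684 reads on the mt-Val precursor, 6663 (99.7%) started at chrM position 1094, the first base after mt-Tv and the annotated first base of mt-Rnr2, the 16S rRNA gene (RefSeq, GRCm38.p6). They contain no base of mt-Val. On the mt-Phe precursor, 127 of 131 reads (96.9%) started at position 70, the annotated first base of mt-Rnr1, the 12S rRNA gene, and not at position 69, the first base after mt-Tf. The other 4 tRNAs had 5 to 56 precursor reads each. The most abundant sequence of either start is shown, chosen after its values were seen.
Position 1094 (chrM:1094-1117): actaatcctagccctagccctaca
Position 70 (chrM:70-87): aaaggtttggtcctggcc

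Reads that started at position 1094 had 29592, 19008 and 17745 normalised CPM with SalB, against 6114, 10052 and 8258 on high fat diet and 9414, 9518 and 10540 on normal diet. All SalB libraries were above all others on this scale, while as a share of tRNA reads SalB replicate 2, at 7177 ppm, was the lowest library of all. The mt-Val precursor family that holds them rose with SalB by 1.46 on the log2 scale relative to high fat diet (SE 0.26, limma-voom adjusted p = 0.00517) and by 1.13 relative to normal diet (SE 0.25, adjusted p = 0.0112). By total counts the values were 0.57 (adjusted p = 0.383) and 0.32 (adjusted p = 0.627).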
